A study of Mus musculus with 20 samples.

Results

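The small leucine-rich proteoglycans are secreted proteins built around a core of leucine-rich repeats, most of which carry glycosaminoglycan chains. The members described here are the 6 that lie outside the Kera, Lum, Dcn and Epyc gene cluster: Bgn (biglycan), Aspn (asporin), Fmod (fibromodulin), Ogn (osteoglycin, or mimecan), Omd (osteomodulin, or osteoadherin) and Prelp. They were taken by gene symbol, as a family, with earlier results of these data known, and stand among 19936 genes with a value. Each had 1 probe set on the array.

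Single limbs of mouse embryos of the 129Sv strain were dissected at embryonic day 13.5, and 300 ng of total RNA from each limb was labelled for an Affymetrix GeneChip 1.0 ST array. There were 4 groups of 5 arrays: wild-type forelimbs (replicates 1 to 5), wild-type hindlimbs (6 to 10), Lmx1b -/- forelimbs (1 to 5) and Lmx1b -/- hindlimbs (6 to 10). Each group held 3 right and 2 left limbs. The Lmx1b -/- embryos are called knockouts here; they lack function of LMX1B, the LIM-homeodomain factor that gives the dorsal side of the limb its identity, in the whole embryo and not in a chosen cell type. Nothing in the labels ties each limb to an embryo of its own, so p-values speak only of the spread among the limbs profiled, some of which may share an embryo. A whole limb is a mixture of tissues, and fewer cells of a type cannot be told apart from less RNA per cell.

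The arrays carried the marks of their labels. The forelimb gene Tbx5 lay between 8.26 and 8.93 (log2 intensity) in all forelimbs and between 4.38 and 5.09 in all hindlimbs, and the hindlimb gene Pitx1 lay between 5.18 and 5.75 in forelimbs and between 8.22 and 8.57 in hindlimbs. Lmx1b itself ranged from 6.14 to 6.52 in wild type and from 5.60 to 6.09 in knockouts, without overlap. Y-linked genes and Xist marked 13 arrays as male and 7 as female, and the sexes were not balanced: all 5 wild-type forelimbs were male, against 3 hindlimbs of each genotype and 2 knockout forelimbs.

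As background, these proteoglycans bind fibrillar collagens and set how fibrils assemble, and several of them bind TGF-beta or BMP ligands in the matrix. Biglycan and asporin belong to the class I proteins, together with decorin. Asporin carries a run of aspartic acid residues in place of a glycosaminoglycan chain. Fibromodulin, osteomodulin and PRELP belong to class II, with keratocan and lumican, and osteoglycin to class III. Fibromodulin and biglycan are known from tendon, asporin and osteoglycin from perichondrium and fibrous connective tissue, osteomodulin from bone, and PRELP from cartilage.

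The genes lie in 3 places of the mouse genome (RefSeq, GRCm38.p6, all read as the interval of the gene model). Bgn is on chromosome X at 73483601 to 73495936. Aspn (chromosome 13, 49544443 to 49567565), Omd (49582462 to 49592612) and Ogn (49608015 to 49624501) are direct neighbours behind Ecm2, a related leucine-rich matrix gene, and the stretch from Ecm2 to Ogn spans 119.7 kb. Prelp (chromosome 1, 133910304 to 133930102) and Fmod (134037254 to 134048280) are neighbours of each other. The 250 bases before the annotated start of the 3 members that differed between wild-type limb types are given, since these members carry the limb-type result. They are written 5′ to 3′ on the plus strand, from RefSeq on GRCm38.p6, at chrX:73483351-73483600 (Bgn), chr13:49544193-49544442 (Aspn) and chr13:49582212-49582461 (Omd). Capitals mark matches to TATAAA (the TATA box) or CAGCTG (an E-box) on either strand.
Bgn: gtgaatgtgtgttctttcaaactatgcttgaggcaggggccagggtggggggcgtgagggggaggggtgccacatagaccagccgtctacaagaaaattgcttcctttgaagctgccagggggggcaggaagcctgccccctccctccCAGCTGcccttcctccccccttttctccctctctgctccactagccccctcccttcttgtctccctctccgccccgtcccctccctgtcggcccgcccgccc
Aspn: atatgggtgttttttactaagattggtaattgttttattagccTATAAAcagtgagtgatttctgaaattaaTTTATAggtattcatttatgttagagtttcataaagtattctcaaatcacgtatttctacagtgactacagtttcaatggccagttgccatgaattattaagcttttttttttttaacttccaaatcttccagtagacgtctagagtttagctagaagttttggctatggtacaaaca
Omd: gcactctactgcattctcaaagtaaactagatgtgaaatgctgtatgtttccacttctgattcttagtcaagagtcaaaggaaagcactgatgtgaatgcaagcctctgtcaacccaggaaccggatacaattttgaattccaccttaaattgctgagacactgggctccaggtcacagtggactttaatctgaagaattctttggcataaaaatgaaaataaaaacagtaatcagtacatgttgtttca
The Bgn stretch was 64.4% G and C, the Omd stretch 38.4% and the Aspn stretch 30%, against a median of 52.4% over 32851 promoters of the same length, of which 1.61% were as low as Aspn or lower. Among the 6 members, Ogn was at 42%, Fmod at 51.2% and Prelp at 55.6%. The Prelp window (chr1:133921402-133921651, minus strand) lay inside the interval of the gene model given above, not before it. TATAAA was found 2 times in Aspn and 2 times in Ogn, where the matches on the opposite strands overlap, and 12.4% of all promoters held it. CAGCTG was found 1 time in Bgn and 1 time in Ogn, and 13% of all promoters held it. The homeodomain core TAATTA (4.84% of all promoters), the PITX core TAATCC (6.25%) and the T-box half-site GGTGTGA (3.33%) were searched on both strands and were not in the window of any of the 6 members. These are matches of letters only.

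Hindlimbs were compared with forelimbs in wild type, where Bgn, Aspn and Omd were lower in the hindlimb. They were 3 of the 6 members past an adjusted p of 0.05 (Benjamini-Hochberg over all genes, limma), all in the same direction. Of all genes tested, 3.26% passed in either direction and 2.49% were lower. The median change of the 6 members was -0.49 on the log2 scale and that of all genes 0.02.

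Bgn, the class I proteoglycan on chromosome X, read 7.87, 8.41, 8.06, 8.07 and 8.08 in the 5 wild-type forelimbs and 7.51, 7.54, 7.67, 7.01 and 7.55 in the 5 hindlimbs (log2 intensity). All 5 hindlimbs were below all 5 forelimbs, as they were for 3.2% of all genes. The means were 8.10 ± 0.20 (SD, n = 5) and 7.45 ± 0.26 (SD, n = 5), a 1.56-fold lower level in the hindlimb. The log2 change was -0.64 (SE 0.13, 95% interval -0.91 to -0.38, adjusted p = 0.00666, limma).

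Aspn, asporin, changed most among the 6. It read 8.07, 8.87, 8.90, 8.47 and 9.01 in wild-type forelimbs and 7.46, 7.63, 7.93, 6.53 and 7.94 in wild-type hindlimbs. The groups did not overlap, although the lowest forelimb (replicate 1) came close to the highest hindlimbs. The means were 8.66 ± 0.39 (SD, n = 5) and 7.50 ± 0.58 (SD, n = 5), a 2.24-fold lower level in the hindlimb. The log2 change was -1.17 (SE 0.26, 95% interval -1.70 to -0.63, adjusted p = 0.0125, limma).

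Omd, osteomodulin, read 3.07, 3.37, 3.64, 3.23 and 3.23 in wild-type forelimbs and 2.60, 2.99, 3.02, 2.90 and 2.88 in wild-type hindlimbs. The groups did not overlap, but the whole probe set was dim: 5.43% of genes had a mean as low as its 2.98 or lower. The log2 change was -0.43 (SE 0.10, 95% interval -0.64 to -0.21, adjusted p = 0.0230, limma), or 1.35-fold. This call was lost without wild-type forelimb replicate 3 (adjusted p = 0.0769), without hindlimb replicate 6 (0.0810) and without hindlimb replicate 9 (0.0543), and with the adjustment over all probe sets (0.0570).

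Fmod, fibromodulin, did not pass the threshold in wild type. It read 7.10, 7.40, 7.16, 7.04 and 7.13 in forelimbs and 6.98, 6.96, 7.11, 6.29 and 6.75 in hindlimbs, and 4 of the 5 hindlimbs were below every forelimb. The log2 change was -0.35 (SE 0.11, 95% interval -0.58 to -0.11, adjusted p = 0.1004, limma). Without wild-type hindlimb replicate 8, the highest of its group, the adjusted p was 0.0372, and without replicate 9, the lowest, it was 0.285 with a change of -0.22.

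Ogn, osteoglycin, read 8.30, 8.91, 9.08, 8.87 and 8.93 in wild-type forelimbs and 8.29, 8.36, 8.76, 7.23 and 8.73 in wild-type hindlimbs. Forelimb replicate 1 lay among the hindlimbs, and hindlimb replicate 9 lay far below its group. The log2 change was -0.54 (95% interval -0.99 to -0.09, adjusted p = 0.198, limma), and without hindlimb replicate 9 it was -0.28 (0.495).

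Prelp, the cartilage proteoglycan, read 5.96, 6.11, 5.84, 5.77 and 5.09 in wild-type forelimbs and 5.56, 5.72, 5.41, 5.40 and 5.73 in hindlimbs. The forelimbs held both the highest and the lowest of these 10 values. The log2 change was -0.19 (95% interval -0.57 to 0.19, adjusted p = 0.661, limma).

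**Figure D1:**
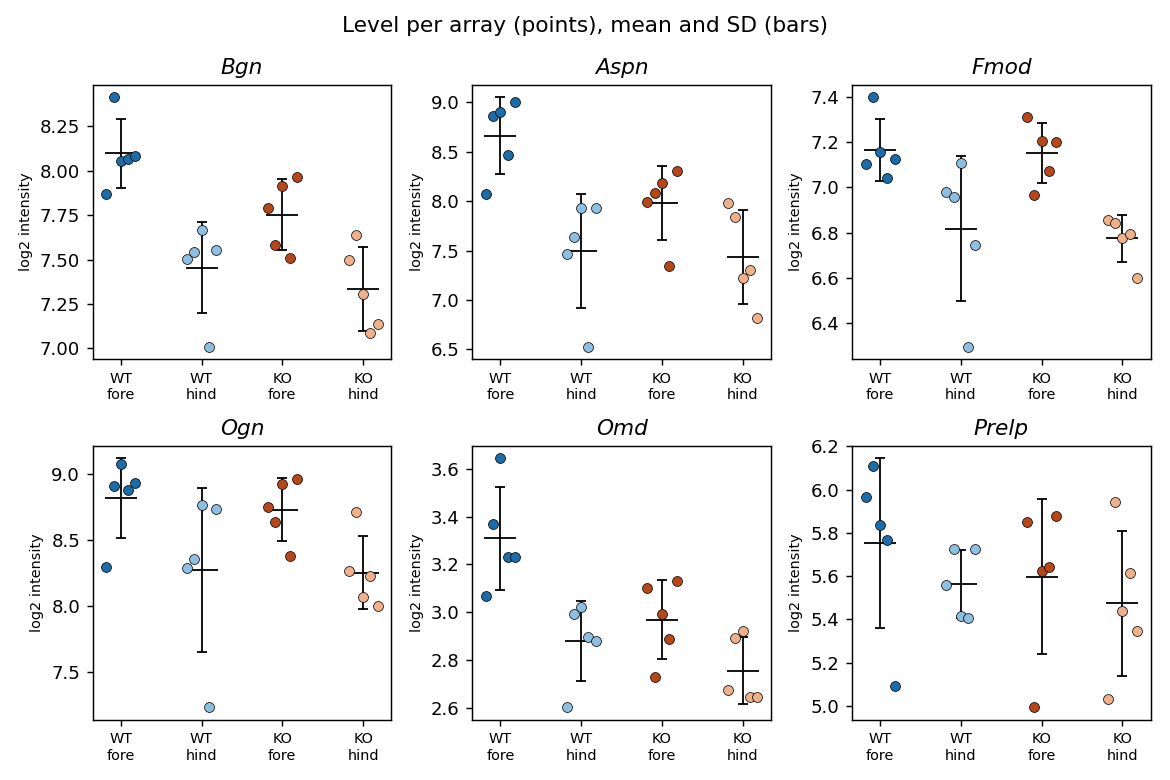
Log2 intensity (vertical axis, a scale of its own in each panel) of the 6 members in the 4 groups; each point is 1 array, the long bar the mean and the whiskers 1 SD (n = 5). Bgn, Aspn and Omd in wild-type hindlimbs lie wholly below wild-type forelimbs, and Fmod in knockout hindlimbs lies wholly below knockout forelimbs.

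Other things differed between the same limbs. The 5 wild-type forelimbs were all male. Among male arrays alone the changes were -0.74 for Bgn (adjusted p = 0.0167), -1.36 for Aspn (0.0162) and -0.51 for Omd (0.0315, limma), so all 3 calls held. The direction along which arrays of a group varied most was taken over genes with a mean log2 level of at least 5, without the members. It held 22.5% of the variation of those genes within groups. On it, wild-type forelimbs averaged 7.64 ± 7.65 (SD, n = 5) and wild-type hindlimbs -2.70 ± 6.27 (SD, n = 5). As a description, the within-group deviations of Aspn had a Pearson r of 0.81 with this axis over 20 arrays, those of Ogn 0.69 and those of Bgn 0.63. For Omd r was 0.39, for Fmod 0.36 and for Prelp -0.26. The sign of the axis had been set so that r was positive for Bgn. With the axis as a covariate, an alternative chosen after the data were seen, none of the 6 members was called (limma): the change was -0.44 for Bgn (adjusted p = 0.0887), -0.64 for Aspn (0.105) and -0.33 for Omd (0.217). In that fit 193 genes were called in all, against 650 without the covariate. Whether the axis has a part in the limb-type change beyond this was not tested.

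Markers of several tissues also differed between wild-type limb types. All 16 skeletal muscle genes were lower in the hindlimb (median change -0.62), and their mean ran from 7.87 to 8.33 in forelimbs and from 7.12 to 7.56 in hindlimbs. Of 7 osteoblast and perichondrium genes with a value, 5 were lower (median -0.63), with list means from 5.45 to 6.30 in forelimbs and from 4.87 to 5.27 in hindlimbs. They included Ibsp (bone sialoprotein, -2.20) and Phex (-2.03). Of 8 tendon genes, Thbs4 (-1.60) and Col14a1 (-1.29) were lower, and of 8 fibroblast genes Dpt (dermatopontin, -1.45). Of 7 pericyte and smooth muscle genes, Rgs5 (-0.74) and Acta2 (-0.52) were lower, and the list means did not overlap, from 6.12 to 6.28 in forelimbs and from 5.84 to 6.07 in hindlimbs. Lower too were the macrophage genes Csf1r (-0.39) and Mrc1 (-0.54) of 10, Kdr (-0.46) of 8 endothelial genes, Krt15 (-0.90) of 9 epidermal genes and Stmn2 (-0.70) of 6 nerve genes, of which Tubb3 was higher (0.46). Of 13 cartilage genes none was called (median -0.22), with overlapping list means from 6.20 to 7.24 in forelimbs and from 6.39 to 6.89 in hindlimbs. The part of these tissues in the changes of Bgn, Aspn and Omd was not tested.

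Hindlimbs were then compared with forelimbs in the knockouts, where none of the 6 members passed the threshold in limma and 4 had an unadjusted p under 0.05. Fewer genes passed in this comparison, 0.617% of all genes at the adjusted threshold and 9.85% at the unadjusted one. The change was below 0 for all 6 members, with a median of -0.40 against 0.0040 for all genes. The 2 limb-type comparisons share no arrays, but they share the estimate of the spread. Tissue markers were called lower in the hindlimb here too (limma), among them Phex (-1.87), Dpt (-1.31), Rgs5 (-0.73) and Tnnt2 (-0.57). The part of these tissues in the changes of the members was not tested.

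Bgn read 7.79, 7.58, 7.92, 7.51 and 7.97 in knockout forelimbs and 7.50, 7.64, 7.30, 7.09 and 7.14 in knockout hindlimbs, and 4 of the 5 hindlimbs were below every forelimb. Its log2 change was -0.42 (95% interval -0.69 to -0.15, adjusted p = 0.198, limma). Fmod read 7.31, 6.97, 7.21, 7.07 and 7.20 in knockout forelimbs and 6.86, 6.84, 6.78, 6.79 and 6.60 in knockout hindlimbs. All 5 hindlimbs were below all 5 forelimbs, as they were for 0.943% of genes, and the log2 change was -0.38 (95% interval -0.61 to -0.14, adjusted p = 0.179, limma). Without wild-type hindlimb replicate 9, an array outside this comparison that adds to the shared spread, Fmod passed (adjusted p = 0.0298).

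Aspn read 7.99, 8.09, 8.18, 7.34 and 8.30 in knockout forelimbs and 7.98, 7.84, 7.22, 7.31 and 6.82 in knockout hindlimbs, a change of -0.55 (95% interval -1.08 to -0.02, adjusted p = 0.494, limma). Ogn read 8.75, 8.64, 8.92, 8.38 and 8.96 in the forelimbs and 8.26, 8.71, 8.07, 8.23 and 7.998 in the hindlimbs, a change of -0.48 (-0.93 to -0.03, adjusted p = 0.478). In both genes the groups overlapped. Omd read 3.10, 2.73, 2.99, 2.89 and 3.13 against 2.68, 2.89, 2.92, 2.64 and 2.64 (change -0.21, adjusted p = 0.510), and Prelp 5.85, 4.99, 5.62, 5.64 and 5.88 against 5.03, 5.94, 5.44, 5.61 and 5.35 (change -0.12, adjusted p = 0.889).

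**Figure D2:**
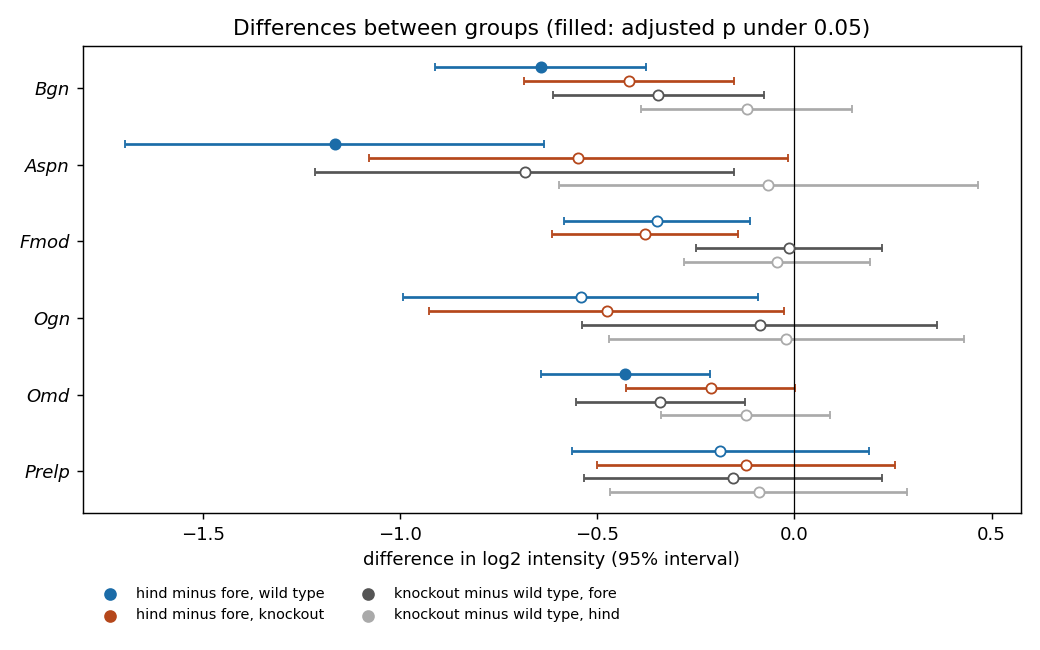
Difference in log2 intensity (horizontal axis) of the 6 members in 4 comparisons of 5 against 5 arrays; points are the fitted differences and bars their 95% intervals, and filled points passed an adjusted p of 0.05. The 3 filled points are Bgn, Aspn and Omd in wild type, and comparisons that share a group are not independent.

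The genotype was the comparison the series was made for, and none of the 6 members passed the threshold for it. Over both limb types, the mean of the forelimb and hindlimb differences, 2.04% of all genes passed. At an unadjusted p under 0.05 there were 2 members, against 14.7% of all genes. Those were Bgn (-0.23, SE 0.09, 95% interval -0.42 to -0.04, adjusted p = 0.220, limma) and Omd (-0.23, SE 0.07, -0.38 to -0.08, adjusted p = 0.115).

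The genotype difference of Aspn was -0.37 (95% interval -0.75 to 0.00066, adjusted p = 0.341, limma). The intervals of Fmod (-0.20 to 0.14), Ogn (-0.37 to 0.26) and Prelp (-0.39 to 0.14) lay on both sides of 0. Of the 11 other small leucine-rich proteoglycans with a value, 3 fell in the knockout: Kera by 2.98, Lum by 1.18 and Dcn by 0.81 on the log2 scale. The change of Dcn, the smallest of these, lay outside the 95% interval of each of the 6 members. The lowest bound of the members was the -0.75 of Aspn. The interval of Dcn itself (-1.09 to -0.54) overlapped that of Aspn and of no other member. In forelimbs alone, the change of Dcn (-0.86) lay inside the interval of Aspn (-1.22 to -0.15). The members were not tested against Dcn. The call of Dcn over both limb types was lost among male arrays alone (-0.62, adjusted p = 0.113). In hindlimbs alone Dcn was not called (-0.76, adjusted p = 0.137, limma).

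In forelimbs alone, 0 members passed in limma (1.27% of all genes did) and 3 had an unadjusted p under 0.05 (13.2% of genes). These were the 3 members that were lower in wild-type hindlimbs, and both comparisons use the same wild-type forelimbs. Aspn was 7.98 ± 0.38 (SD, n = 5) in knockout forelimbs against 8.66 ± 0.39 in wild type, a change of -0.68 (95% interval -1.22 to -0.15, adjusted p = 0.234, limma). Bgn was 7.75 ± 0.20 against 8.10 ± 0.20 (change -0.35, adjusted p = 0.233). Omd was 2.97 ± 0.17 against 3.31 ± 0.22 (change -0.34, adjusted p = 0.130), and passed without wild-type forelimb replicate 1 (0.0487). For each of the 3 genes the groups overlapped: 2 knockout forelimbs lay below all wild-type forelimbs for Aspn and 3 for Bgn and Omd. Fmod (-0.01), Ogn (-0.09) and Prelp (-0.16) differed by less than 1 SD of either group. Among male arrays alone (5 wild-type and 2 knockout forelimbs) the differences were -0.52 for Aspn (adjusted p = 0.741, limma), -0.22 for Bgn (0.820) and -0.19 for Omd (0.791). Tissue markers were also called lower in knockout than in wild-type forelimbs (limma). Among them were Ibsp (-2.40), Thbs4 (-1.55), Actn2 (-0.74), Tek (-0.45) and Csf1r (-0.38). The part of these tissues in the forelimb changes of Aspn, Bgn and Omd was not tested.

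In hindlimbs alone, 0 members passed in limma and 0 had an unadjusted p under 0.05, against 0.231% and 5.75% of all genes. The changes ran from -0.12 (Omd) to -0.02 (Ogn), and knockout and wild-type hindlimbs overlapped for every member. The genotype effect in hindlimbs minus that in forelimbs was 0.62 for Aspn (SE 0.36, 95% interval -0.13 to 1.37, unadjusted p = 0.102) and 0.22 for Bgn (-0.15 to 0.60, unadjusted p = 0.232). In that test 0 members passed in limma, 0 had an unadjusted p under 0.05, and 0.0201% and 3.63% of all genes did. A different genotype effect in the 2 limb types was therefore not shown for any member.

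Ordered by group mean, Bgn, Aspn and Omd were highest in wild-type forelimbs, then knockout forelimbs, wild-type hindlimbs and knockout hindlimbs. For Aspn these means were 8.66, 7.98, 7.50 and 7.43, and for Bgn 8.10, 7.75, 7.45 and 7.33. Ogn, Fmod and Prelp followed the same order, with Ogn at 8.82, 8.73, 8.27 and 8.25. Fmod stood at 7.17, 7.15, 6.82 and 6.77, and Prelp at 5.75, 5.60, 5.57 and 5.47. The SDs within groups ran from 0.10 (Fmod in knockout hindlimbs) to 0.62 (Ogn in wild-type hindlimbs), and neighbours in these orders overlapped in every case.

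Side and sex were also tested. Left minus right, with side added to the 4 groups, no gene at all passed in limma (0% of 19936). An unadjusted p under 0.05 was found for 2 members, as for 9.48% of genes: Fmod (-0.20, adjusted p = 0.411) and Bgn (-0.18, 0.524). Bgn lies on the X chromosome, and its male minus female difference was 0.05 (95% interval -0.18 to 0.28, adjusted p = 0.973, limma). Of the members 0 passed that test and 0 had an unadjusted p under 0.05, against 0.0552% and 5.01% of all genes.

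The genome neighbours of the members were read in the same fit. Ecm2, which lies 39.6 kb before Aspn, read 4.28, 4.34, 4.51, 4.22 and 4.25 in wild-type forelimbs and 3.52, 3.52, 3.87, 3.13 and 3.95 in wild-type hindlimbs. It was lower in the hindlimb in wild type (-0.72, SE 0.14, adjusted p = 0.00693, limma) and in knockouts (-0.86, SE 0.14, adjusted p = 0.00446). Ecm2 was dim, with a mean log2 level of 4.02, and was not tested where dim genes were left out. No hindlimb of either genotype reached the forelimbs of that genotype. The call was lost with the axis as a covariate in wild type (-0.47, adjusted p = 0.0815) and among male arrays alone in knockouts (-0.81, adjusted p = 0.411). Ecm2, Aspn, Omd and Ogn thus all had changes below 0 between limb types, of which Ogn's did not pass in either genotype.

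The genes on both sides of that stretch were not called in wild type: Tes3-ps changed by 0.03 (adjusted p = 0.938), Nol8 by 0.03 (0.899) and Iars by -0.13 (0.319). On chromosome 1, Optc, a further leucine-rich proteoglycan gene next to Prelp, changed by 0.05 (0.836) and Btg2, next to Fmod, by -0.12 (0.492). On chromosome X, the nearer neighbours of Bgn were not called in wild type. Atp2b3 (19 kb away) changed by 0.05 (0.833), Haus7 (46 kb) by 0.23 (0.0663) and Trex2 (50 kb) by 0.16 (0.501). Dusp9, a phosphatase gene 156 kb from Bgn, was higher in the hindlimb (0.43, SE 0.09, adjusted p = 0.00701), the opposite direction to Bgn. Dusp9 was not called with the axis as a covariate (0.32, adjusted p = 0.0913), nor between knockout limb types (0.34, 0.0912).

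**Figure D3:**
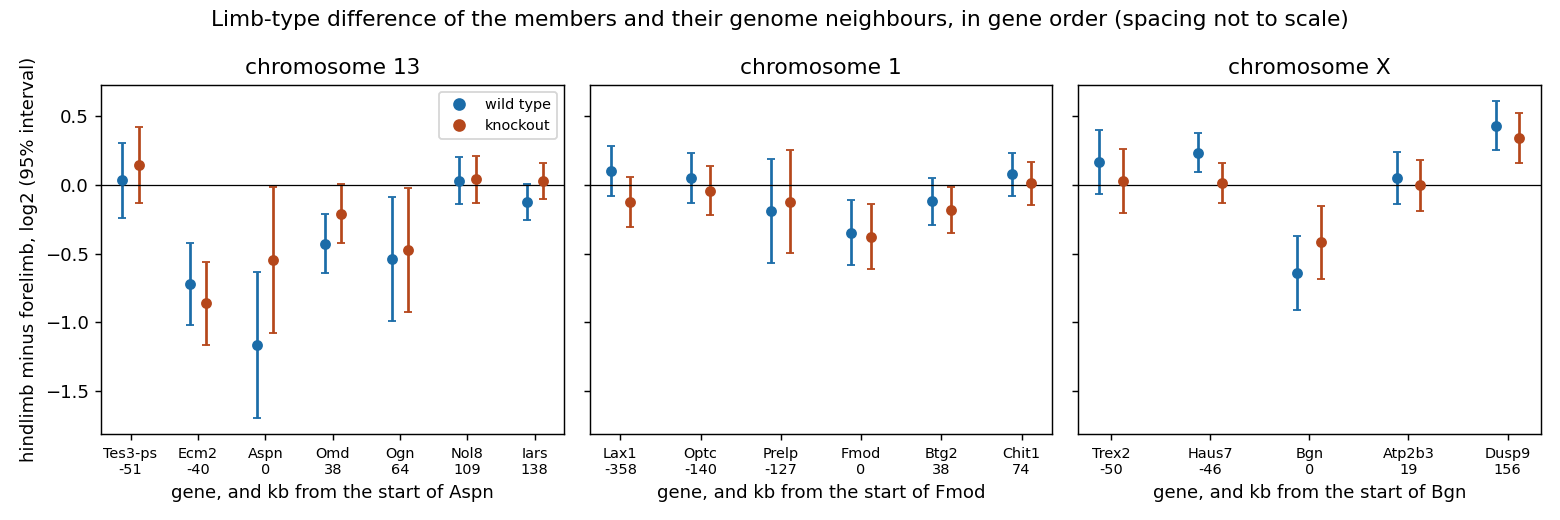
Hindlimb minus forelimb difference in log2 intensity (vertical axis, bars 95% intervals, 5 against 5 arrays) in wild type and knockouts for the members and their nearest measured neighbours in gene order; the numbers under the names are kb from the start of Aspn, Fmod or Bgn, and the spacing is not to scale. From Ecm2 to Ogn all points lie below 0, while Tes3-ps, Nol8 and Iars have wild-type intervals that include 0.

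The partners and modifiers of these proteoglycans were counted in the same comparisons. Of 13 collagen genes, 6 were lower in the wild-type hindlimb (2.49% of all genes were). By genotype, 6 fell in the knockout over both limb types and 6 in forelimbs alone, but 0 in hindlimbs alone. Of all genes, 2.04%, 1.27% and 0.231% were called there in either direction. The wild-type forelimbs are shared by the limb-type comparison and the first 2 of these. Those lower in wild-type hindlimbs included Col12a1 (-0.94, adjusted p = 0.00042) and Col14a1 (-1.29, 0.00213), whose products sit on the fibril surface. Also lower there were Col6a1 of the microfibrils (-0.61, 0.0115) and Col1a1 of the main fibril (-0.83, 0.0136, all limma). The call of Col1a1 was lost without wild-type forelimb replicate 5 (-0.74) or without hindlimb replicate 9 (-0.69), with an adjusted p of 0.0545 and 0.0543. With the axis as a covariate, neither Col1a1 (-0.43, 0.0927) nor Col6a1 (-0.37, 0.131) was called, and with limbs sharing a number averaged Col6a1 was not (0.0683). The median change of the 13 was -0.41, and in knockouts, where only Col14a1 passed (-1.02, adjusted p = 0.0334), it was -0.11. Col14a1 lost that call without knockout forelimb replicate 1 (adjusted p = 0.0757), 2 (0.0930) or 3 (0.1203), and without knockout hindlimb replicate 8 (0.0873), 9 (0.0883) or 10 (0.1212).

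Of 27 genes of glycosaminoglycan chain synthesis, 0 were called between wild-type limb types and only Chst15, a sulfotransferase, fell in the knockout (by 0.24, adjusted p = 0.0314, limma). Between knockout limb types, Csgalnact1 of this list was lower in the hindlimb (-0.52, adjusted p = 0.0218, limma). The call of Chst15 was lost in 9 of 20 fits that left out an array: wild-type forelimb 3 or 4, wild-type hindlimb 7, 8 or 10, knockout forelimb 2 or 4, and knockout hindlimb 9 or 10 (adjusted p from 0.0535 to 0.0689), and with the replicate block by title number (0.0727). It was also lost among male arrays alone (0.519), with sex as a covariate (0.0714), with arrays centred on their medians (0.0967), with limbs sharing a number averaged (0.0668), with the axis as a covariate (0.0716) and with all probe sets in the adjustment (0.0510). Of 14 TGF-beta signalling genes, none passed for the genotype over both limb types, while the receptor genes Tgfbr2 (-0.40, adjusted p = 0.0129) and Tgfbr3 (-0.40, 0.0331) were lower in wild-type hindlimbs. The Tgfbr3 call was lost without wild-type forelimb 3, 4 or 5 or hindlimb 6, 7 or 9 (adjusted p from 0.0797 to 0.1109), and the Tgfbr2 call without hindlimb 9 (0.0517). Neither was called with limbs sharing a number averaged (0.0798 for Tgfbr2, 0.122 for Tgfbr3) or with the axis as a covariate (0.128 and 0.332). Tgfbr3 was also not called among male arrays alone (0.0688), with sex as a covariate (0.0527), with arrays centred on their medians (0.0518), with all probe sets in the adjustment (0.0779) or with only the groups compared (0.0515). Between knockout limb types, Tgfbr2 was lower in the hindlimb as well (-0.40, adjusted p = 0.0409, limma). Alternative fits are not given here for the knockout limb-type calls of Tgfbr2 and Csgalnact1. Of 10 proteases and propeptide enzymes, Pcolce, an enhancer of procollagen processing, fell in the knockout (by 0.23, adjusted p = 0.0136), and 0 were called between wild-type limb types. The call of Pcolce was lost among male arrays alone (0.167) and with limbs sharing a number averaged (0.0742).

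Within groups, some of the members varied together. Aspn, Ogn and Bgn also followed the axis of variation within groups described above (Pearson r of 0.81, 0.69 and 0.63). How often other pairs of genes correlate as closely was not tested. The group mean was subtracted from every array, and the 15 pairs of members were correlated over the 20 arrays, with permutation of arrays within groups and adjustment over the 15 pairs. By Pearson's r, 6 pairs passed, all among Bgn, Aspn, Fmod and Ogn. Aspn and Ogn, neighbours on chromosome 13, were the closest pair of members (r = 0.89, Spearman's rho = 0.83, permutation p = 5e-05 for each, adjusted 0.00075). Without the 2 arrays farthest in Aspn, r was 0.82. Genes other than the members were closer to each: among genes with a mean log2 level of at least 5, Ogn had rank 8 for Aspn. Aspn likewise had rank 8 for Ogn. Bgn correlated with Aspn (r = 0.83, rho = 0.78, permutation p = 0.00021 and 0.00035, adjusted 0.00105 and 0.00175). It did so too with Ogn (r = 0.81, rho = 0.75, permutation p = 0.00012 and 0.00018, adjusted 0.0009 and 0.00135) and Fmod (r = 0.78, rho = 0.73, permutation p = 0.0004 and 0.00088, adjusted 0.0015 and 0.0033). Without the 2 arrays farthest in Bgn these r were 0.80, 0.79 and 0.64.

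The pair of Fmod and Ogn (r = 0.71, rho = 0.49, permutation p = 0.0192 and 0.0471, adjusted 0.0479 and 0.101) fell to r = 0.32 without the 2 arrays farthest in Fmod, so that this relation rests on them. For Aspn and Fmod (r = 0.66, rho = 0.51, permutation p = 0.00943 and 0.0375, adjusted 0.0283 and 0.0938), r fell to 0.44. Neither pair passed by rho after adjustment. Omd, although it lies between Aspn and Ogn, had r = 0.34 with Aspn (rho = 0.37, permutation p = 0.17 and 0.139) and r = 0.39 with Ogn (rho = 0.57, permutation p = 0.129 and 0.014, adjusted 0.195 and 0.0421), so that the pair of Omd and Ogn passed by rho and not by r. The dim Omd signal limits what these can show. Aspn and Prelp were at r = -0.02 (rho = 0.11, permutation p = 0.916 and 0.677).

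Prelp varied with the cartilage genes. Its deviations and those of the mean of 13 cartilage genes had r = 0.95 (rho = 0.90, permutation p = 1e-05 for each, the smallest that 100000 permutations can give, adjusted 0.00036 over 72 pairs of member and marker list). Without the 2 arrays farthest in Prelp r was 0.93, and it was above 0 in all 4 groups. The 5 other members had r between -0.14 (Aspn) and 0.29 (Omd) with the same list. The low Prelp readings of wild-type forelimb 5, knockout forelimb 2 and knockout hindlimb 6 are thus the arrays lowest in cartilage genes. Prelp also passed by r with the mean of joint interzone markers (r = 0.79, permutation p = 0.00084, adjusted 0.00583). It did not pass there by rho (0.59, permutation p = 0.0153, adjusted 0.0581). Without the 2 arrays farthest in Prelp that r was 0.65.

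Ogn, Aspn and Bgn varied with several other lists, most closely with fibroblast and vessel wall genes for Ogn and Bgn. The fibroblast list includes Lum and Dcn, and the tendon list Kera, which are small leucine-rich proteoglycans themselves. With the mean of 8 fibroblast genes, Ogn had r = 0.85 (rho = 0.91, permutation p = 1e-05 for each), Aspn r = 0.82 (rho = 0.76, permutation p = 7e-05 and 0.00026) and Bgn r = 0.76 (rho = 0.64, permutation p = 0.00028 and 0.00495). After adjustment the p by r was 0.00036, 0.00126 and 0.00333, and without the 2 farthest arrays r was 0.84, 0.74 and 0.78. With the 7 pericyte and smooth muscle genes r was 0.81 for Ogn (rho = 0.83, permutation p = 6e-05 and 0.00021), 0.79 for Bgn (rho = 0.75, permutation p = 0.00037 and 0.00054) and 0.72 for Aspn (rho = 0.66, permutation p = 0.00153 and 0.00343). Aspn was as close to the 9 epidermis genes (r = 0.72, rho = 0.81, permutation p = 0.00037 and 0.00015). Ogn passed with tendon (r = 0.78), osteoblast and perichondrium (0.75), endothelium (0.75), skeletal muscle (0.70) and macrophage genes (0.66) as well (Spearman's rho from 0.67 to 0.83, permutation p by r from 0.00019 to 0.00159). Of the 72 pairs, 21 passed by r after adjustment: 7 with Ogn, 6 with Aspn, 5 with Bgn, 2 with Prelp and 1 with Fmod. All points are whole limbs, so each pair shares its RNA and its array.

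**Figure D4:**
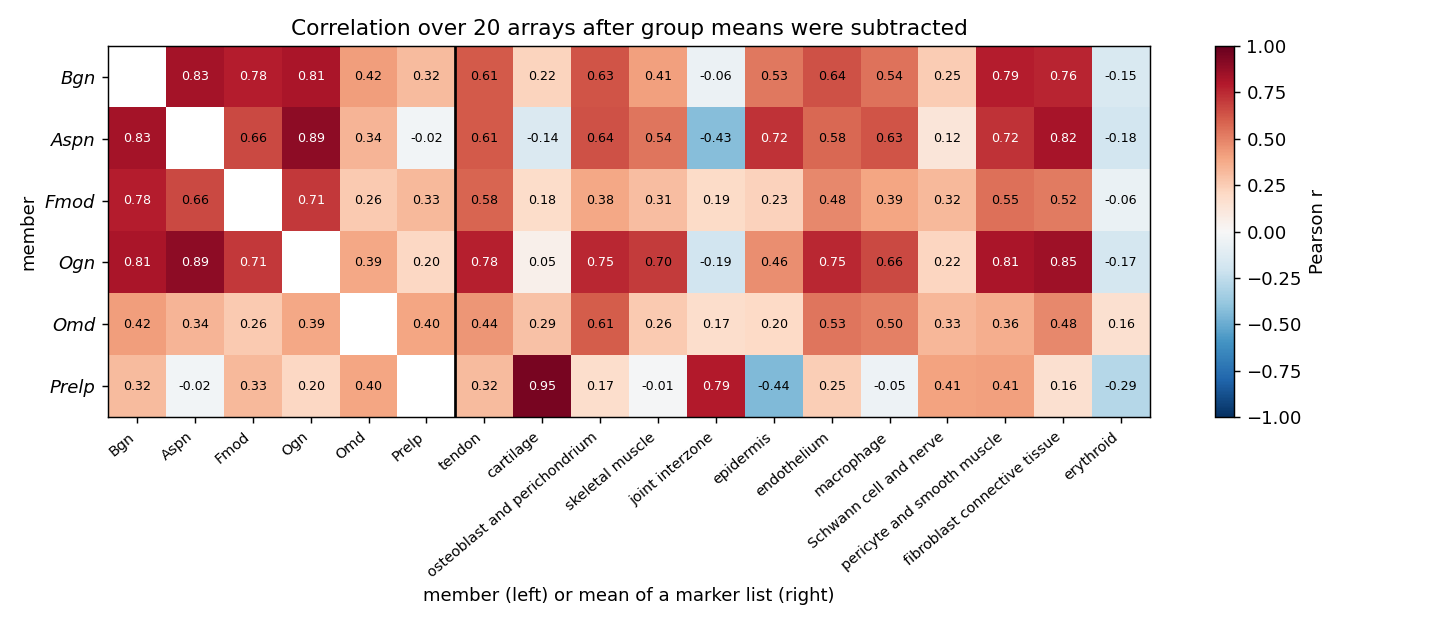
Pearson r over 20 arrays, after group means were subtracted, of each member (rows) with the other members (left block) and with the mean of each marker list (right block); red is above 0 and blue below. Bgn, Aspn, Fmod and Ogn form a block with r of 0.66 to 0.89, and Prelp stands with cartilage at 0.95.

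**Figure D5:**
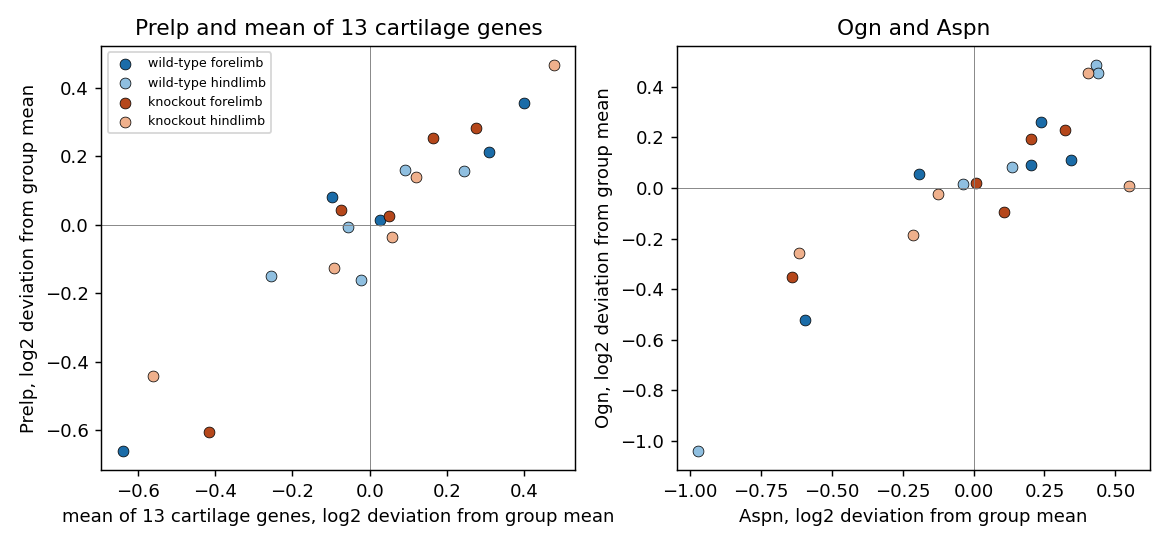
Log2 deviation from the group mean on each of 20 arrays, coloured by group: Prelp against the mean of 13 cartilage genes (left) and Ogn against Aspn (right). The left points run along a line through all 4 groups (r = 0.95), and in the right plot wild-type hindlimb replicate 9 is lowest in both genes.

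The single genes that varied most like each member within groups, among genes with a mean log2 level of at least 5, are given as a description. For Prelp they were the cartilage matrix genes Matn4 (r = 0.95), Matn3 (0.94) and Hapln1 (0.93), over 20 arrays. For Ogn they were Postn (periostin, 0.93), Lox (lysyl oxidase, the collagen cross-linking enzyme, 0.92) and Matn2 (0.92). For Bgn they were Ctsk (0.94) and Ctsd (0.91), which encode cathepsins, and Tm4sf1 (0.91), and for Aspn B3gnt9 (0.93), Krt1 (an epidermal keratin, 0.91) and Fhl1 (0.91). The closest genes to Fmod were Frk, Txndc16 and Ptx3, each at 0.85, and those to Omd were Sfxn3 (0.87), Acsf2 (0.75) and Mospd3 (0.75). Frk fell to 0.67 and Ptx3 to 0.70 without the 2 arrays farthest in Fmod.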

How the data were processed

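The deposited values are intensities on a linear scale, 1 per probe set and array, for which the submitters' processing notes name RMA. Its version, the annotation and the build: not given in the sources used here. Intensities ran from 1.65 to 13033, with array medians from 28.6 to 31.8. Their log2 was taken here with no pseudocount. The number of arrays limits the precision.

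Of 35512 probe sets, 21789 had 1 gene symbol and entered the gene tests, 1621 had several, and the gene table lacked 12101; 21698 were matched to RefSeq (GRCm38.p6) by Entrez identifier. The probe set with the highest mean stood for a gene, leaving 19936. All comparisons came from 1 fit over these genes with 4 group means (lmFit, contrasts.fit and eBayes of limma 3.58.1, R 4.3.3), with Benjamini-Hochberg adjustment and p under 0.05 as the threshold; intervals are 95%. Side and sex (from Y-linked genes and Xist) were added to the groups for their own tests. The script was tested on simulated data.

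Members and lists were chosen with earlier results of these data known. Named genes are the members, up to 4 called genes of each list with the smallest p, the 2 nearest measured neighbours on each side, and the 3 genes most correlated within groups. Replicate numbers were checked for pairing: deviations of arrays that share a title number correlated from -0.44 to 0.34 (3 of 10 pairs above 0.1), and those that share side and number from -0.25 to 0.31 (5 of 10), so the main fit has no block. Alternatives were scaling, pseudocount, dim genes, prior, array weights, probe sets, threshold, sex, side, samples in the fit, shared numbers, blocks and each of 20 arrays left out.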

Additional observations from a re-analysis of the deposited data

Results flagged for a closer look

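Within each group of 5 arrays the highest and lowest value of every member were set against the others by Dixon's ratio, in 24 groups of values, where chance gives about 1 in 20. There were 3 values that stood apart. Bgn in wild-type hindlimb replicate 9 was at 7.01, and the next lowest of the group at 7.51. This array was the lowest of its group in 5 of the 6 members. Without it the limb-type change of Bgn was -0.53 (adjusted p = 0.0232, limma) and that of Aspn -0.92 (0.0418), so both calls held, while that of Omd did not (0.0543). Ogn in wild-type forelimb replicate 1 was at 8.30, and the next lowest at 8.87. That array was the lowest of its group in 4 of the 6 members. Prelp in knockout forelimb replicate 2 was at 4.99, and the next lowest at 5.62. Leaving it out gave no call for Prelp.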

How the results depend on the processing

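Bgn and Aspn kept their wild-type limb-type calls in all 20 fits that left out an array (highest adjusted p 0.0232 and 0.0478). The number of members called between wild-type limb types was 3; it was 1 at an adjusted p under 0.01, 0 with the axis within groups as a covariate (chosen after seeing the data), and 2 to 4 with an array left out. Leaving out an array gave 0 to 1 in the genotype comparison of forelimbs and 0 to 1 between knockout limb types. Omd also lost its wild-type limb-type call under quantile normalization (0.0542) and with limbs sharing a number averaged (0.0676), and was not tested where dim genes were left out. No other alternative moved a count of members by over 1.5 times. With a replicate block by side and number the counts stayed 3 in wild type and 0 in knockouts. With a replicate block by title number they stayed 0 in the genotype comparisons. Among the calls for which alternatives are given, the block changed only that of Chst15. Side and number cannot pair limbs by embryo throughout, since all 5 wild-type forelimbs were male and 2 wild-type hindlimbs were female. The unchanged counts therefore do not show what shared embryos would do.

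Small uncalled genotype changes turned sign. Among male arrays alone, over both limb types, Fmod was at 0.12, Ogn at 0.18 and Prelp at 0.039; in forelimbs Fmod was at 0.091, Ogn at 0.037 and Prelp at 0.11; in hindlimbs Bgn was at 0.052, Aspn at 0.40, Fmod at 0.16 and Ogn at 0.32. With the axis as a covariate Fmod was at 0.018 and Ogn at 0.13 over both limb types, Fmod at 0.058 and Ogn at 0.19 in forelimbs, and Aspn at 0.056 and Ogn at 0.066 in hindlimbs. With array weights Fmod in forelimbs was at 0.033. With an array left out, the ranges were -0.094 to 0.0079 for Fmod over both limb types, -0.18 to 0.0064 for Ogn over both limb types, -0.054 to 0.045 for Fmod in forelimbs, -0.31 to 0.088 for Aspn in hindlimbs, -0.17 to 0.029 for Fmod in hindlimbs, -0.28 to 0.10 for Ogn in hindlimbs and -0.21 to 0.020 for Prelp in hindlimbs. The cause was not tested. The 5 arrays a group and, for Omd, a signal near the floor limit what small changes can show.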
